A study of Mus musculus with 4 samples.

Results

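Expression of 10 genes of the blood system was followed in cells sorted from the mouse lower incisor: Ptprc, which encodes CD45, and the transcription factor genes Spi1, Runx1, Gata2, Myb, Cebpe, Gfi1, Ikzf1, Lyl1 and Tal1. The genes were taken by symbol from the count table, where each of the 10 was found among 55487 genes, and each passed the filter on low counts that left 17128 genes for the test. KO and WT mice were compared, at postnatal day 30 and on a C57 background. KO mice had the genotype Ptipf/f;Sp7-cre, in which Cre is driven by the promoter of Sp7, a transcription factor gene of bone and tooth-forming cells. WT mice had the genotype Ptipf/f, so they carried the same floxed alleles without Cre and were not wild type in the strict sense. Each group had 2 libraries, made from cells labelled as dental progenitors of the dental pulp that were negative for CD45, Ter119 and Tie2, the surface markers used to remove leukocytes, red cell precursors and endothelial cells. Whether the 2 libraries of a group stem from different mice is not stated in the labels, so p-values measure only the spread between these libraries, which may be technical. Because the WT mice had no Cre, the deletion and the transgene cannot be told apart.

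CD45 is a receptor-type tyrosine phosphatase on nearly all nucleated blood cells, where it removes an inhibitory phosphate from kinases of the SRC family. The other genes encode factors that build the blood lineages. RUNX1, TAL1, LYL1 and GATA2 act in stem and early progenitor cells, and GATA2 is also kept in mast cells and basophils. MYB sustains dividing progenitors, PU.1 (from Spi1) directs myeloid and B cell fates, and IKAROS (from Ikzf1) directs lymphoid fates. GFI1 and C/EBP epsilon act in maturing neutrophils. The targeted gene, Paxip1, encodes PTIP, a subunit of histone H3 lysine 4 methyltransferase complexes.

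The libraries held 17770831 to 19142757 counts in KO mice and 15154246 to 15394782 in WT mice. A count of 3 stood for 0.154 to 0.209 CPM (a gene's count relative to its library's TMM-scaled total), a figure that covers counting error only. Paxip1 stood at 5.69 and 3.98 CPM in KO libraries 1 and 2, against 28.3 and 44.3 CPM in WT libraries 1 and 2 (log2 fold change -2.91, adjusted p = 0.150 in edgeR's quasi-likelihood test), with all exons counted, including those outside the deleted part. The 16 dental mesenchyme and odontoblast genes listed as markers of the labelled tissue summed to 18590 and 28650 CPM in KO libraries, against 18410 and 40380 CPM in WT libraries. Of the 17128 genes tested, edgeR called 0 higher and 0 lower in KO libraries at an adjusted p of 0.05. Unadjusted p was under 0.05 for 1254 genes on the higher and 1694 on the lower side, and DESeq2 called 472 and 989 of the 17378 genes to which it gave an adjusted p.

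Ptprc transcripts were counted in each library of the CD45-negative sort, and both KO libraries lay below both WT libraries. Ptprc (ENSMUSG00000026395, chromosome 1 from 138062861 to 138175708, minus strand, GRCm38) had 764 and 165 counts in KO libraries 1 and 2, against 2019 and 2263 in WT libraries 1 and 2. On the CPM scale these were 39.2 and 9.25 in KO libraries, against 140.4 and 144 in WT libraries. The WT libraries were close to each other, whereas KO 1 held 4.24 times the level of KO 2. The mean was 24.2 ± 21.2 CPM in KO libraries and 142 ± 2.58 CPM in WT libraries (SD, n = 2 each), a 5.87-fold lower level in KO libraries (log2 fold change -2.55, SE 0.66). That log2 fold change was -3.93 without KO 1 and -1.81 without KO 2. With an adjusted p of 0.169 in edgeR the difference did not pass, whereas DESeq2 gave 0.000534. In RNA from many cells, fewer cells of a type and less RNA per cell cannot be told apart.

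**Figure D1:**
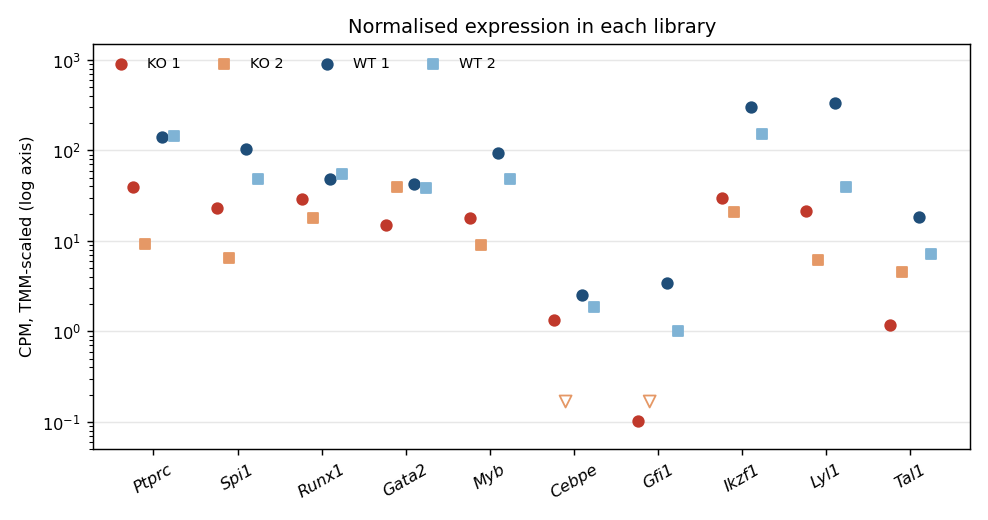
Normalised expression of the 10 genes (CPM with TMM-scaled library sizes, log axis) in KO libraries 1 and 2 and WT libraries 1 and 2, one point per library. Open triangles mark a count of 0, drawn at the CPM that 3 counts would give in that library, and the Gfi1 point of KO 1 rests on 2 counts. For each gene except Gata2, both KO points lie below both WT points.

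The 3 factors of the myeloid and lymphoid lineages lay below the WT range in both KO libraries. Ikzf1, the IKAROS gene, whose product sets up lymphoid differentiation, stood at 29.6 and 21.1 CPM in KO libraries 1 and 2, against 303 and 153 CPM in WT libraries 1 and 2. The lowest WT library held more than the KO libraries together. The level was 8.99-fold lower in KO libraries (log2 fold change -3.17, SE 0.46), with an adjusted p of 0.145 in edgeR and 4.1e-08 in DESeq2. Ikzf1 had the smallest p of the 10 genes in both tools. Spi1, the gene of PU.1, the factor that turns progenitors towards macrophages, granulocytes and B cells, stood at 23.2 and 6.56 CPM in KO libraries, against 104 and 48.5 CPM in WT libraries. The Spi1 groups did not overlap, but within each group one library held 3.54 times (KO) or 2.14 times (WT) the level of the other. Its log2 fold change was -2.35 (SE 0.68, adjusted p = 0.184 in edgeR and 0.00333 in DESeq2), and ran from -3.53 without KO 1 to -1.67 without KO 2. Myb, which keeps progenitors of all blood lineages dividing, stood at 17.8 and 9.02 CPM in KO libraries, against 94.1 and 47.7 CPM in WT libraries (log2 fold change -2.40, SE 0.53). The adjusted p of Myb was 0.161 in edgeR and 0.000405 in DESeq2. In both groups, library 1 held almost the same multiple of Myb over library 2, 1.98 times in KO and 1.97 times in WT.

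Ikzf1 lies on chromosome 11 from 11685003 to 11772926 (plus strand), Spi1 on chromosome 2 from 91082390 to 91115756 (plus strand) and Myb on chromosome 10 from 21124935 to 21160984 (minus strand). Myb shares 559 exon bases with Gm26577 on the opposite strand, and that gene had 0 counts in all 4 libraries. No other annotated exon overlaps those of Ikzf1 or Spi1.

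Lyl1 and Tal1 encode closely related helix-loop-helix factors of early blood progenitors, and both were below the WT range in both KO libraries. Lyl1 stood at 21.5 and 6.22 CPM in KO libraries 1 and 2, against 334 and 39.8 CPM in WT libraries 1 and 2. WT 1 alone, with 4805 counts, lay 8.39 times above WT 2, the widest spread between WT libraries among the 10 genes. The fitted log2 fold change of -3.75 (SE 1.06, adjusted p = 0.177 in edgeR and 0.0841 in DESeq2) was -1.49 without WT 1. Tal1 stood at 1.18 and 4.48 CPM in KO libraries, against 18.6 and 7.19 CPM in WT libraries (log2 fold change -2.18, SE 0.84, adjusted p = 0.253 in edgeR). The value ran from -3.39 without KO 2 to -1.33 without WT 1. The gap between the higher KO library and the lower WT library was thus small for Tal1, and KO 2 held more than 3 times the level of KO 1, the reverse of Ptprc, Spi1 and Lyl1. Lyl1 lies on chromosome 8 from 84701457 to 84704715 and Tal1 on chromosome 4 from 115056426 to 115071755, both on the plus strand. Lyl1 shares 4 exon bases with Nfix on the opposite strand, which is too few for many reads.

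Promoters are shown for the related pair Lyl1 and Tal1, for Ptprc as the sort marker and for Gata2, the gene whose groups overlapped. Each is the 250 bases before a RefSeq start site (GRCm38.p6), 5′ to 3′ on the strand of the gene. Capitals mark the PU.1 box GAGGAA, the GATA site AGATAA and the E-box CAGNTG, on either strand.
Lyl1 (chr8:84701207-84701456, plus strand): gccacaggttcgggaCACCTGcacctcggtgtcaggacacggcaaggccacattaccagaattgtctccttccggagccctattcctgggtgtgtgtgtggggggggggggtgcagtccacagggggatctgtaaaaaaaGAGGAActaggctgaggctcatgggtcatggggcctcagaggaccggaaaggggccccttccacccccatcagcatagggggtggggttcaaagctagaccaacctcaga
Tal1 (chr4:115056176-115056425, plus strand): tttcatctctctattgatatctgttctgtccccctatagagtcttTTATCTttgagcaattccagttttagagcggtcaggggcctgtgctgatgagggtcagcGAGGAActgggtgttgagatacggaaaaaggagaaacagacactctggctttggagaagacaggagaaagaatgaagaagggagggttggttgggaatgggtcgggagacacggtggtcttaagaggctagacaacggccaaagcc
Ptprc (chr1:138175306-138175555, minus strand): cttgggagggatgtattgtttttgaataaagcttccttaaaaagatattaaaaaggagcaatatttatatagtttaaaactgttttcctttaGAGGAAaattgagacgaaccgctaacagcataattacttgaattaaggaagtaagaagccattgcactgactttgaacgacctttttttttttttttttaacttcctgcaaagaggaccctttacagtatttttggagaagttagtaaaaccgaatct
Gata2 (chr6:88193641-88193890, plus strand): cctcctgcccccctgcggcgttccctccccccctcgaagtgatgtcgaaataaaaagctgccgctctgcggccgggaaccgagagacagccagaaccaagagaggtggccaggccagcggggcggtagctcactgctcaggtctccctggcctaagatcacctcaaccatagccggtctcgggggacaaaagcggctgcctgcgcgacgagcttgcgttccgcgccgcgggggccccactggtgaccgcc
The PU.1 box was found 110 bases before the start in Lyl1, 146 in Tal1 and 158 in Ptprc, and was not among the letters of either Gata2 window. It was also in 1 window of Runx1, 46 bases before the start. The windows of Ikzf1, Myb and Gfi1, genes that were lower in both KO libraries, lacked it too. So did the other windows of Tal1 and Ptprc, which are not shown. Of the 10 genes, 8 had 14 such windows in all, and 4 of these windows held the PU.1 box, which 23.3% of 32851 windows of all genes hold. The E-box was in 4 of the 14 windows (44.8% of all), the GATA site in 2 (9.99% of all) and the RUNX site TGTGGT in 0 (14.1% of all). The other motifs searched, on both strands, were AACNGC for MYB (4 of 14, and 29.9% of all), TTGCNNAA for C/EBP factors (2, and 9.56%), TGGGAA for IKAROS (1, and 21.6%) and AATC for GFI1 (9, and 69.0%). The windows of 1 gene can overlap, and in a Gfi1 window the C/EBP and MYB matches share 2 bases. A match of letters is not a bound site.

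Gata2 was the one gene of the 10 whose groups overlapped. Gata2, a zinc finger factor of blood stem cells, mast cells and basophils, stood at 14.8 and 39.0 CPM in KO libraries 1 and 2, against 43.0 and 38.0 CPM in WT libraries 1 and 2. KO 2 lay between the WT libraries, and KO 1 lay below all others. The log2 fold change was -0.59 (SE 0.51, adjusted p = 0.623 in edgeR), -0.05 without KO 1 and -1.41 without KO 2. Runx1, which starts definitive blood formation and is also known from bone and dental tissues, stood at 29.2 and 17.8 CPM in KO libraries, against 48.3 and 55.2 CPM in WT libraries. Its groups did not overlap, and the log2 fold change of -1.14 (SE 0.40, adjusted p = 0.226 in edgeR and 0.117 in DESeq2) was the smallest in size after that of Gata2. Gata2 lies on chromosome 6 from 88193891 to 88207032 (plus strand) and Runx1 on chromosome 16 from 92601466 to 92826149 (minus strand). Runx1 shares 106 exon bases with Gm26626 on the opposite strand, which had 13 counts over the 4 libraries.

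The neutrophil factors had low counts, 0 to 49 per library, and both were at 0 in KO 2. Gfi1, a repressor that neutrophil precursors need to mature, had 2 and 0 counts in KO libraries 1 and 2, against 49 and 16 in WT libraries 1 and 2. Over the libraries of each group, this was 0.0248 times the WT level in KO libraries, with a 95% interval of 0.00294 to 0.0932 (exact Clopper-Pearson limits, counting error only). Gfi1 passed the filter on low counts only through its WT libraries, and its adjusted p was 0.195 in edgeR and 0.0342 in DESeq2. It shares 101 exon bases with A430072P03Rik on the opposite strand, a gene with 89 counts in all, and without strand information their reads cannot be told apart there. Cebpe, a factor for the late granules of neutrophils, had 26 and 0 counts in KO libraries, against 36 and 29 in WT libraries. On the CPM scale KO 1, at 1.33, was close to the WT libraries at 2.50 and 1.85, and KO 2 was at 0. The Cebpe log2 fold change was -1.69 (SE 1.63, adjusted p = 0.664 in edgeR), and -0.66 without KO 2. Gfi1 lies on chromosome 5 from 107716657 to 107726036 and Cebpe on chromosome 14 from 54710360 to 54712174, both on the minus strand.

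All 10 fitted fold changes were below 0, as were 49.9% of those of all tested genes. In 9 of the 10, both KO libraries lay below both WT libraries, and in 0 both lay above. Over all tested genes these shares were 24.9% and 25.8%. The median log2 fold change of the 10 genes was -2.38, and that of all tested genes 0.0024. By edgeR's quasi-likelihood test 0 of the 10 were called in either direction, against 0% of all genes, and 8 had an unadjusted p under 0.05 on the lower side and 0 on the higher, against 9.89% and 7.32% of all genes. DESeq2 called 5 lower (Ptprc, Spi1, Myb, Gfi1 and Ikzf1), and 0 higher, where it called 5.69% and 2.72% of genes, and limma-voom called 0. Gfi1, which is among these 5 as well as the 8 and the 9 above, passed the filter on low counts only through its WT libraries. With the replicate number as a block, edgeR called 4 (Spi1, Myb, Ikzf1 and Lyl1), lower and 0 higher, where it called 1.08% and 0.344% of genes, with adjusted p of 0.0376 to 0.0458. Without the filter on low counts it called 6 lower and 0 higher, where it called 3.2% and 1.43% of genes. With that filter, edgeR called 5 lower without KO 1 (Ptprc, Spi1, Myb, Ikzf1 and Lyl1) and 0 higher, where it called 3.69% and 1.13% of genes. Without WT 1 it called 2 lower (Ptprc and Ikzf1) and 0 higher, where it called 1.12% and 0.496% of genes. None of the 10 was called without KO 2 (0.00523% of genes lower and 0.0784% higher) or without WT 2 (0% and 0%).

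**Figure D2:**
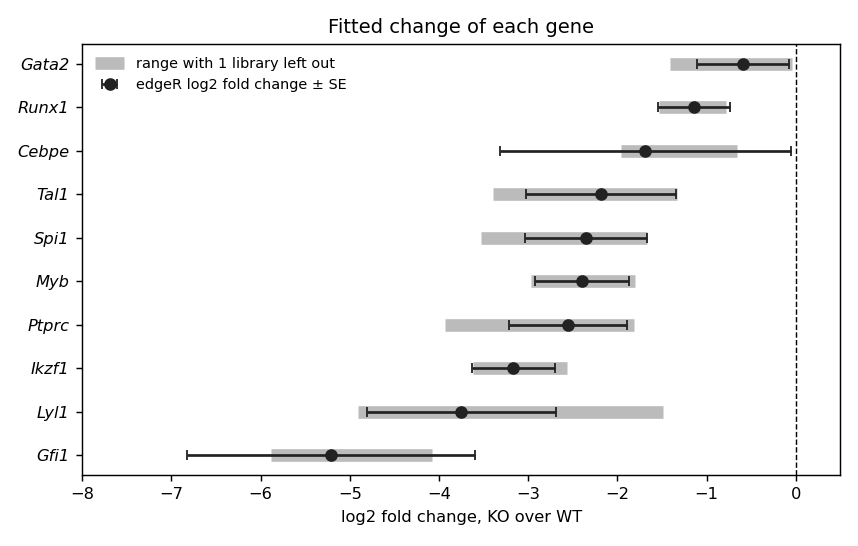
Fitted log2 fold change of each gene, KO over WT, with its standard error (points and bars, edgeR, 2 libraries a group) and the range of the same fit with 1 library left out (grey). The fit without KO 1 is not drawn for Cebpe and Gfi1, which had 0 counts in KO 2. The points run from -5.21 for Gfi1 to -0.59 for Gata2, and each grey range stays below 0.

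Levels of different genes were compared per kilobase of merged exons. In KO libraries Lyl1 led with a mean of 7.71 CPM per kb, followed by Spi1 (5.52), Gata2 (4.98) and Ikzf1 (4.39), whose libraries overlapped. Lyl1 led through KO 1, at 11.96 CPM per kb, whereas in KO 2 Gata2 led with 7.22 and Lyl1, at 3.46, was below Ikzf1 at 3.66. In WT libraries Lyl1 led with 104 CPM per kb, through WT 1 (186, against 22.1 in WT 2), followed by Ikzf1 (39.5) and Spi1 (28.3), whose libraries also overlapped with each other. Gata2 thus ranked 3 in KO libraries and 6 in WT libraries. Cebpe and Gfi1 were the lowest of the 10 in both groups, at 0.537 and 0.0161 CPM per kb in KO libraries and 1.75 and 0.694 in WT libraries. Ranks moved with the length used, most of all for Ptprc. Its annotated exons merge to 18.3 kb, and its principal coding transcript has 4.70 kb. Ptprc ranked 7 in KO and 5 in WT libraries by the first length, and 4 in both groups by the other. In KO libraries the other length also moved Gata2 to 2, Spi1 to 3, Ikzf1 to 5, and Runx1 to 7.

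Of the 9 ratios of a factor to Ptprc, 6 overlapped between the groups and 3 did not, those of Runx1, Gata2 and Gfi1. Per kilobase of merged exons and within each library, Runx1 stood at 1.13 and 2.93 times the Ptprc level in KO libraries 1 and 2, against 0.524 and 0.584 times in WT libraries 1 and 2. Gata2 stood at 1.28 and 14.3 times Ptprc in KO libraries, against 1.04 and 0.895 times in WT libraries. For both genes the KO ratios lay above the WT ratios, so the gap between the groups was smaller for them than for Ptprc. Of all tested genes, 5.00% had a lower log2 fold change than Ptprc, so a gene that changes little also has KO ratios above WT ratios. The share of all genes whose ratios to Ptprc do not overlap was not computed. The ratios of Spi1 overlapped between the groups, at 4.03 and 4.82 in KO libraries, against 5.03 and 2.29 in WT libraries. Those of Ikzf1 (2.40 and 7.24 in KO, 6.85 and 3.37 in WT) and Myb (0.934 and 2.0 in KO, 1.37 and 0.679 in WT) overlapped too. Lyl1 was at 5.59 and 6.84 times Ptprc in KO libraries, and its WT libraries were on either side, at 24.2 and 2.81. For Gfi1 the KO ratios, 0.0150 and 0, were below the WT ratios of 0.140 and 0.0406. The KO ratios of Gfi1 rest on 2 and 0 counts, and Gfi1 passed the filter on low counts only through its WT libraries. Taken as a percent of the summed pan-leukocyte genes, per kilobase, Gata2 overlapped between the groups, at 0.955% and 7.49% in KO libraries, against 0.426% and 1.07% in WT libraries. Runx1 did not overlap on that scale, at 0.844% and 1.53% in KO libraries, against 0.215% and 0.699% in WT libraries. Gfi1 was again lower in both KO libraries, and the others overlapped. With 2 libraries a group the smallest p of an exact two-sided permutation test is 0.33, so none was tested.

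**Figure D3:**
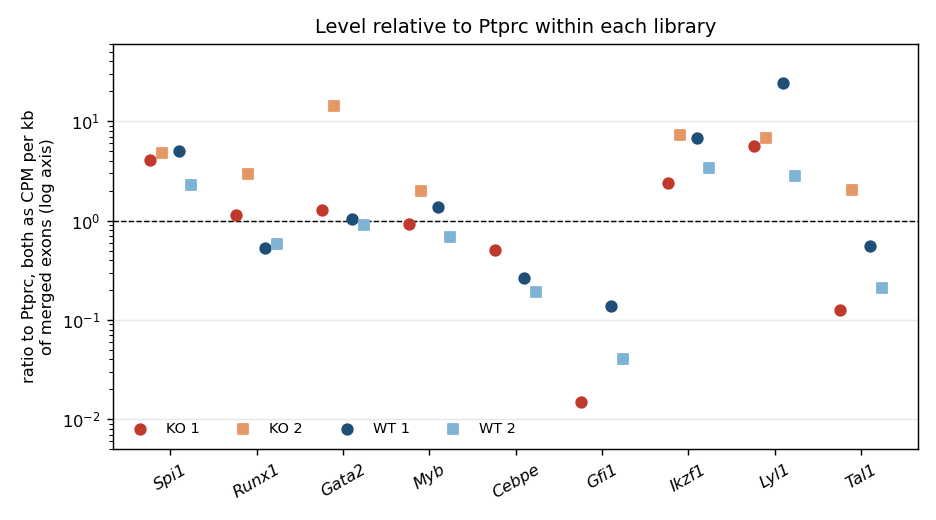
Ratio of each factor to Ptprc within each library, both as CPM per kb of merged exons (log axis, 1 point per library, dashed line at equal levels). The zero ratios of Cebpe and Gfi1 in KO 2 are not drawn. KO points lie above WT points for Runx1 and Gata2 and mix with them for Spi1, Myb, Ikzf1, Lyl1 and Tal1.

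The libraries of a group differed in different ways from gene to gene. In KO mice, 8 of the 10 genes were higher in library 1 than in library 2, and Gata2 and Tal1 were higher in library 2. In the WT mice 8 were higher in library 1, and Ptprc and Runx1 were slightly higher in library 2. The summed CPM of 9 mast cell and basophil genes had the same order between the KO libraries as Gata2 and Tal1, with 449 in KO 1 and 1048 in KO 2, against 2391 and 746 in WT 1 and WT 2. Mcpt8, a basophil protease gene, stood at 35.3 and 91.9 CPM in KO libraries, against 281 and 80.2 CPM in WT libraries. Prss34, another such gene, stood at 316 and 851 CPM in KO libraries, against 1749 and 562 in WT libraries. Of the 8 that were tested, 0 were lower and 1 was higher in both KO libraries, against 24.9% and 25.8% of all tested genes. The median log2 fold change of the 8 was -1.18. The higher gene was Tpsb2, a mast cell tryptase gene, at 0.820 and 4.82 CPM in KO libraries, against 0.0695 and 0.255 in WT libraries. With 1 and 4 counts in WT libraries, Tpsb2 passed the filter on low counts only through its KO libraries (16 and 86 counts). Gata1, the erythroid and mast cell factor, also followed this order, at 1.38 and 4.71 CPM in KO libraries, against 22.1 and 13.4 in WT libraries (both Prss34 and Gata1 were chosen after their values were seen). The B cell sum had the opposite order, with 984 in KO 1 and 164 in KO 2, against 6429 and 2170 in WT 1 and WT 2. The part of such cells in the levels of the 10 genes was not tested.

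**Figure D4:**
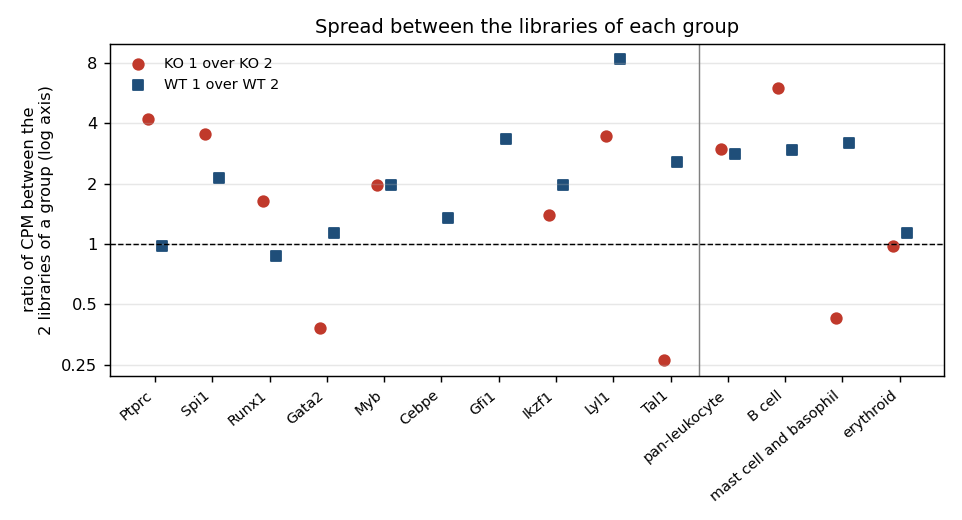
Ratio of CPM between the 2 libraries of a group (log axis), KO 1 over KO 2 in red and WT 1 over WT 2 in blue, for the 10 genes and, right of the grey line, for 4 summed lists of cell type genes. Cebpe and Gfi1 have no KO point because KO 2 had 0 counts. Gata2, Tal1 and the mast cell and basophil sum lie below 1 between the KO libraries, while Ptprc, Spi1, Lyl1 and the B cell sum lie well above it.

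Partners and relatives of the 9 factors lay on both sides of the WT range. Of 24 such genes, 10 were lower and 7 higher in both KO libraries than in both WT libraries, with a median log2 fold change of -0.27. Of all tested genes, 24.9% were lower and 25.8% higher in this way. Gfi1b, the erythroid and megakaryocyte relative of Gfi1, stood at 4.82 and 5.72 CPM in KO libraries, against 188 and 15.5 CPM in WT libraries. As with Lyl1, Gfi1b was far higher in WT 1 than in WT 2. Ikzf3, the B cell relative of Ikzf1, stood at 13.1 and 3.42 CPM in KO libraries, against 148 and 44.2 CPM in WT libraries. Neither passed in edgeR (adjusted p = 0.165 for Gfi1b and 0.163 for Ikzf3), and both did in DESeq2 (0.0397 and 1.47e-05). The other members of the Runx1 family had the opposite order: Runx2, the bone and tooth factor, stood at 68.7 and 89.2 CPM in KO libraries, against 38.1 and 54.0 in WT libraries, and Runx3 at 29.1 and 24.04 CPM in KO libraries, against 9.04 and 13.9 in WT libraries (adjusted p = 0.337 and 0.239 in edgeR). Lmo2 and Ldb1, which bridge TAL1 and GATA factors in 1 complex, had log2 fold changes of -0.39 and -0.47. Runx2, Runx3, Lmo2 and Ldb1 were named after their values were seen.

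Of 22 other tested factors of blood stem cells, progenitors and lineages, 14 were lower and 3 higher in both KO libraries. The shares over all tested genes were 24.9% and 25.8%. The median log2 fold change of the 22 was -0.96. Pax5, the B cell identity factor, stood at 13.8 and 5.04 CPM in KO libraries, against 138 and 75.3 CPM in WT libraries. Hhex, a homeobox factor of early progenitors, stood at 4.92 and 4.09 CPM in KO libraries, against 30.04 and 22.0 CPM in WT libraries (adjusted p = 0.150 for both in edgeR, and 2.05e-07 for Pax5 and 0.000224 for Hhex in DESeq2). The 3 with the opposite order were Prdm16, Tcf7 and Bcl11b. Tbx21, a T and NK cell factor that did not pass edgeR's filter on low counts, had 67 and 9 counts in KO libraries, against 0 and 0 in WT libraries, with an adjusted p of 0.0173 in DESeq2 and 0.0186 in edgeR without the filter. These 4 were named after their values were seen. Of 12 receptor genes of blood progenitors, 8 were lower and 0 higher in both KO libraries (median -1.53). Flt3, a receptor of lymphoid and myeloid progenitors, stood at 1.13 and 0.224 CPM in KO libraries, against 19.8 and 4.01 CPM in WT libraries. Flt3 did not pass in edgeR (adjusted p = 0.174) and did in DESeq2 (0.000513).

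Marker lists of mature blood cells gave the following values beside those of the 10 genes. Of all tested genes, 24.9% were lower and 25.8% higher in both KO libraries. Of 19 pan-leukocyte genes, 18 were lower and 0 higher in both KO libraries (median -2.59), and their summed CPM was 751 and 253 in KO libraries, against 5226 and 1855 in WT libraries. The WT sums differed by 2.82 times although Ptprc itself was level between the WT libraries. Cd48 and Was had the smallest p of that list, at 4.12 ± 1.63 and 7.52 ± 4.37 CPM in KO libraries and 30.1 ± 6.30 and 74.2 ± 36.1 CPM in WT libraries (SD, n = 2 each, adjusted p = 0.150 for both in edgeR, and 3.24e-05 and 1.87e-06 in DESeq2). Of 10 B cell genes, 10 were lower in both KO libraries (median -2.90), among them Vpreb1 and Igll1, the surrogate light chain genes of B cell precursors. Of 13 erythroid genes, 13 were lower (median -2.14), with sums of 228 and 233 CPM in KO libraries, against 956 and 844 CPM in WT libraries, so that the libraries of a group were nearly equal. Hba-a1, an alpha globin gene, stood at 38.2 and 38.1 CPM in KO libraries, against 180 and 166 CPM in WT libraries, and its reads could also match the near-identical Hba-a2. Ermap, an erythroid membrane protein gene, stood at 9.07 and 7.79 CPM in KO libraries, against 86.5 and 48.8 CPM in WT libraries (adjusted p = 0.145 for Ermap and Hba-a1 in edgeR, and 7.495e-07 and 1.97e-05 in DESeq2). Of 7 tested megakaryocyte genes, 6 were lower in both KO libraries (median -1.40). Gp1ba, a platelet receptor gene, had 0.410 and 0 CPM in KO libraries, against 7.44 and 5.73 CPM in WT libraries. With 8 and 0 counts in KO libraries, Gp1ba passed the filter on low counts only through its WT libraries. Pf4, the platelet factor 4 gene, had 3.64 and 2.91 CPM in KO libraries, against 9.46 and 18.9 CPM in WT libraries.

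Granule genes, many of them targets of the neutrophil factors, were not alike. For the counts that follow, 24.9% of all tested genes were lower and 25.8% higher in both KO libraries. Of 7 genes listed for primary granules, 7 were lower in both KO libraries (median -2.03). Mpo stood at 32.1 and 26.0 CPM in KO libraries, against 287 and 180 CPM in WT libraries, and Elane at 4.82 and 1.57, against 37.9 and 38.2 (adjusted p = 0.145 and 0.150 in edgeR, and 2.14e-08 and 9.43e-07 in DESeq2). Of 10 genes listed for later granules, 2 were lower and 0 higher in both KO libraries (median -0.53). Several genes of that list need C/EBP epsilon for their expression in neutrophils. Chil3, a chitinase-like gene, stood at 12.8 and 7.23 CPM in KO libraries, against 27.7 and 21.1 CPM in WT libraries. Camp, a cathelicidin gene of this list, stood at 17.8 and 1.91 CPM in KO libraries, against 26.6 and 13.7 CPM in WT libraries. The 10 genes listed for later granules summed to 224 and 71.2 CPM in KO libraries, against 224 and 197 CPM in WT libraries. Of 10 tested macrophage and osteoclast genes, 3 were lower and 0 higher (median -0.44, and 0.07 without KO 2). All 12 listed genes of this kind summed to 458 and 496 CPM in KO libraries, against 461 and 430 CPM in WT libraries. The 2 of smallest p were Adgre1, the F4/80 gene, at 0.769 and 0.953 CPM in KO libraries, against 2.71 and 5.09 CPM in WT libraries, and C1qb, a complement gene, at 14.4 and 7.398 CPM in KO libraries, against 27.8 and 17.9 CPM in WT libraries. T and NK cell genes were scarce, with Cd3e and Cd8a at 0 in all 4 libraries. Of 5 tested, 3 were lower and 1 higher in both KO libraries (median -1.90). Lat, a T cell adaptor gene, stood at 2.61 and 2.07 CPM in KO libraries, against 12.1 and 6.68 CPM in WT libraries, and Nkg7, a cytotoxic granule gene, at 1.18 and 2.41 CPM in KO libraries, against 15.9 and 4.58 CPM in WT libraries.

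Substrates and regulators of CD45 did not all have 1 direction. Of 10 tested, 6 were lower and 1 higher in both KO libraries (median -1.51), against 24.9% and 25.8% of all tested genes. Among the 6, Fgr had no counts in either KO library and passed the filter on low counts only through its WT libraries. Lyn, the SRC family kinase of B and myeloid cells, stood at 42.5 and 21.4 CPM in KO libraries, against 273 and 145 CPM in WT libraries. Cd22, a B cell receptor partner, stood at 7.48 and 3.53 CPM in KO libraries, against 38.4 and 35.2 CPM in WT libraries (adjusted p = 0.150 for both in edgeR, and 1.185e-05 for Lyn and 5.38e-05 for Cd22 in DESeq2). Lgals1, named after its values were seen, the widely expressed gene of galectin 1, was the one with the opposite order, at 375 and 408 CPM in KO libraries, against 203 and 188 CPM in WT libraries.

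Of the other cells the sort removes, markers were counted as well. Tek, the gene of Tie2, stood at 44.8 and 41.8 CPM in KO libraries, against 21.7 and 81.2 CPM in WT libraries, so its groups overlapped. Of 13 endothelial genes, 8 were lower and 0 higher in both KO libraries, with a median of -0.63. The shares of lower and higher genes over all tested genes were 24.9% and 25.8%. Pecam1 and Cdh5, junction genes of endothelial cells, stood at 174 ± 11.3 and 22.3 ± 0.52 CPM in KO libraries and 352 ± 66.9 and 40.7 ± 15.4 CPM in WT libraries (SD, n = 2 each). Most dental mesenchyme and odontoblast genes had the opposite direction, with 10 of 15 tested higher and 1 lower in both KO libraries (median 0.78). The sums of all 16 listed genes overlapped, at 18590 and 28650 CPM in KO libraries, against 18410 and 40380 CPM in WT libraries. Msx2 and Msx1, homeobox genes of the tooth mesenchyme, led the list. They stood at 422 ± 88.1 and 2718 ± 273 CPM in KO libraries and 84.4 ± 4.24 and 786 ± 86.3 CPM in WT libraries (SD, n = 2 each). Of 11 tested dental epithelium genes, 7 were lower and 0 higher. All 12 listed epithelium genes had a summed CPM of 34930 and 42100 in KO libraries, against 63630 and 22850 in WT libraries. Of these, Klk4, an enamel protease gene, stood at 2.46 and 0.448 CPM in KO libraries, against 9.87 and 7.13 CPM in WT libraries, and Cdh1, the E-cadherin gene, at 8.35 and 3.36 CPM in KO libraries, against 19.8 and 15.8 CPM in WT libraries. The part of any of these cells in the levels of the 10 genes was not tested.

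**Figure D5:**
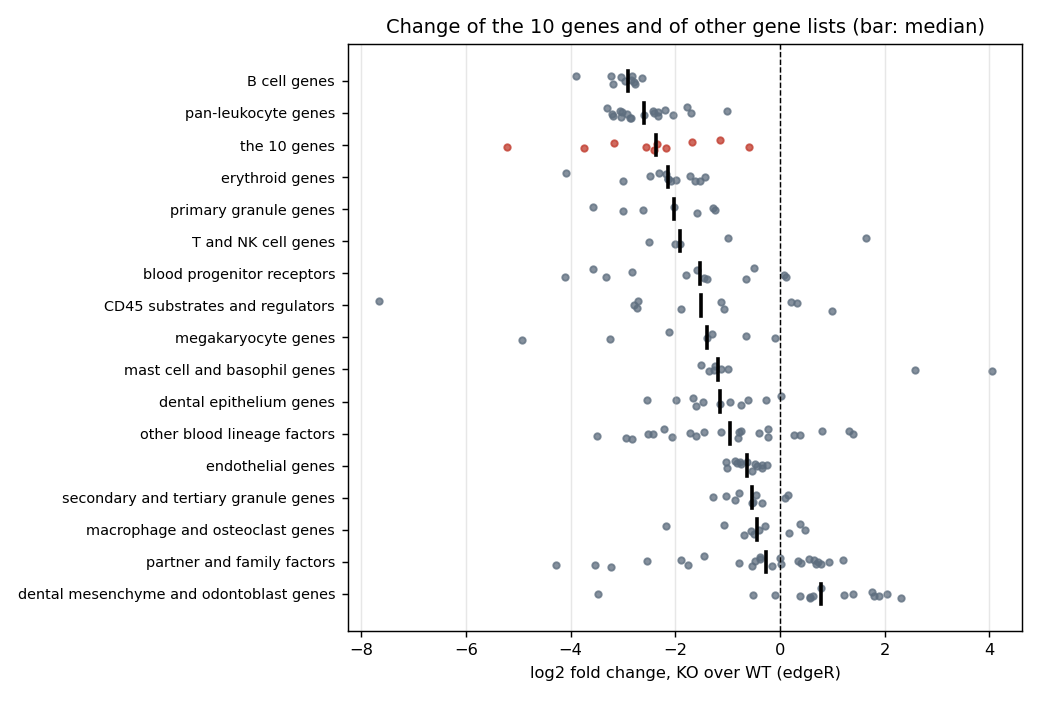
Fitted log2 fold change (KO over WT, edgeR) of every tested gene of each list, with the median as a black bar, and the 10 genes in red. The point at the far left is Fgr, with 0 counts in both KO libraries, whose fitted value is no bound. The median of the 10 genes lies between those of the pan-leukocyte (-2.59) and erythroid (-2.14) lists.

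By the distance between log2 CPM profiles, centred per gene over the 4 libraries, the genes most like Ptprc were Fndc9, Igkv8-16, Gm32391, 4833407H14Rik and Fam129c (distance 0.10 to 0.23). Igkv8-16 is an immunoglobulin kappa variable segment and Gm32391 and 4833407H14Rik are long noncoding RNAs. Of the 5, Fam129c was the one with high counts, at 65.4 and 14.2 CPM in KO libraries, against 270 and 244 CPM in WT libraries. The others had at most 60 counts in a library and 0 to 3 counts in KO 2, so their distance depends on the pseudocount of 0.1 CPM. Among the 9 factors Spi1 was closest to Ptprc, with a distance of 0.91 and rank 255 of 17127 genes, and Gata2 was farthest, with 3.26 and rank 7494.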

How the data were processed

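Polyadenylated RNA was analysed from 4 libraries, 2 KO and 2 WT. Per the labels' protocols, oligo-dT priming with template switching gave cDNA, which was amplified in 14 cycles, and 50 ng were fragmented with a transposase kit, so neither strand nor molecules are marked. The authors deposited raw counts, 1 whole number per Ensembl gene and library, without normalisation. Per the submitters' processing notes, the tools were featureCounts 2.0.1, Bowtie2 2.3.5.1 and Trim Galore 0.6.6, on GRCm38. How reads with several matches were treated, and which annotation release was used, is not given in the sources used here. Symbols, coordinates and exon lengths came from GENCODE M21, which held 55227 of 55487 IDs. A symbol carried by several IDs went to the ID with most counts.

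The test was edgeR 4.0.16 (glmQLFit, glmQLFTest, TMM, filterByExpr, genotype as the only term, R 4.3.3), two-sided, with Benjamini-Hochberg adjustment over 17128 genes and a threshold of 0.05. It was also run on simulated data with known changes, the outcome of which is not reported here, so its power is not given. Fold changes are KO over WT, and SE is the log2 fold change divided by the square root of F. DESeq2 1.42.0, limma-voom (limma 3.58.1), other scalings and filters, a replicate block and fits without each library were alternatives. The biological coefficient of variation was 49.2%. Libraries of 1 group were no duplicates of each other (mean chi-square per gene 56.5 in KO and 89.9 in WT).

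The 10 genes and all lists were chosen with earlier results of these data known. Besides the 10 genes, the 2 with the smallest p of each list, Tek, Paxip1 and the 5 closest to Ptprc in pattern (pseudocount 0.1 CPM) were to be named, of which some are not reported here. Azu1 and Ahsp were not found by symbol.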

Additional observations from a re-analysis of the deposited data

How the results depend on the processing

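Each of the 10 genes kept its direction in every alternative run (DESeq2 size factors or library totals as scaling, no filter or a stricter one on low counts, DESeq2, limma-voom, the replicate block, and each library left out). With 1 library left out, this was all but fixed in advance for the 9 genes whose groups did not overlap. The log2 fold change of Gata2, whose groups overlapped, was -0.05 without KO 1. The number of the 10 called lower was 0 in the main test, with both other scalings, with the stricter filter and in limma-voom. It was 6 without the low-count filter, 5 in DESeq2, 4 with the replicate block, and 0 to 5 with 1 library left out. Over all genes, 449 higher and 1005 lower were called without the filter, 472 and 989 in DESeq2, 59 and 185 with the replicate block, and 0 to 215 and 0 to 703 with 1 library left out. The cause of these differences was not tested, except that without the filter edgeR took each gene's spread from the trend over all genes, so a gene's own spread did not enter its p. The median log2 fold change of all tested genes, 0.0024 in the main test, was -0.21 without the filter, -0.22 in DESeq2 and -0.11 without KO 1. That of the 10 genes ran from -3.48 (without KO 1) to -1.58 (without WT 1), and was -3.48 also with Cebpe and Gfi1 set at the bound that 3 counts allow. The median of the macrophage and osteoclast list was -1.10 without KO 1 and turned to 0.069 without KO 2. In 9 of the 10, both KO libraries lay below both WT libraries, and leaving out a library cannot make such groups overlap. The number with KO below WT libraries was thus bound to stay at 9 or rise, and was 9 to 10 with 1 library left out. Replicate numbers are no stated pairing: deviations of same-numbered libraries had a correlation of 0.125 across genes, over 2 pairs. Gfi1 and Cebpe, with 0 to 49 counts per library, are limited by depth. With 1 library left out, the lone remaining one was taken to have the spread of the other group.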
